A study of Mus musculus with 10 samples.

Results

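Ptprz1, the ligands pleiotrophin (Ptn) and midkine (Mdk), the receptor kinase gene Alk and 6 further receptor phosphatase genes (Ptprg, Ptprd, Ptprf, Ptprs, Ptprk and Ptprm) were followed through 10 RNA-seq libraries of cultured mouse aortic smooth muscle cells. The 10 genes were found by symbol among the 54446 gene rows of the deposited count table, and 9 of them, all except Alk, passed the filter on low counts. The set was chosen by the measured Ptprz1 difference between the groups in these same libraries, higher in the mutant cells. Its difference between the groups is therefore given as a description, with no test. The other 9 genes were added for their family or ligand role, also with results of these data known, and each of their adjusted p-values comes from a fit of all 15181 tested genes.

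The cells came from the aortas of 5 KitW/Wv mice (called WWv) and of 5 wild type mice (WT), with 5 libraries per group. KitW/Wv mice carry a pair of germline mutant alleles of Kit, the receptor kinase for stem cell factor, so every cell of the animal carried them. All cells were primary smooth muscle cells freed from the aorta with collagenase and grown to passage 2, with no further treatment given in the labels. The labels do not tie a library to a mouse, and age, sex and strain are not given in the sources used here, so p-values measure the spread between these libraries. Library totals ranged from 43455518 to 53863661 counts in WWv and from 42040255 to 51309067 in WT. Kit itself averaged 2.00 ± 0.764 CPM (counts normalised to library size with TMM factors) in WWv and 4.12 ± 0.629 CPM in WT (SD, n = 5 each), and the groups did not overlap. Library WT 2 stood apart from the other WT libraries. It lay at −20.2 on the first principal component, within the WWv range of −33.4 to −11.5 and far from the 29.1 to 51.1 of the other 4 WT libraries. Values without it are given beside the results it moves most.

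The 8 smooth muscle markers were detected in every library, most strongly Acta2 and Tagln and least Myocd (2.609 to 4.86 CPM in WWv and 1.337 to 2.228 CPM in WT). They summed to 16800 to 20100 CPM in WWv and 9950 to 13000 CPM in WT, and 6 of 8 were higher in WWv. Over all tested genes 12.8% were higher and 15.4% lower. Fibroblast markers summed to 196 to 287 CPM in WWv and 312 to 527 CPM in WT, with 0 higher and 4 of 6 lower in WWv in edgeR's quasi-likelihood test (Benjamini-Hochberg adjusted). In limma-voom 2 were lower, and 0 were higher at an unadjusted p under 0.05, in DESeq2 or in limma-voom. Endothelial markers summed to 59.9 to 142 CPM in WWv and 40.5 to 212 CPM in WT, and the highest sum was that of WT 2. The other 4 WT libraries reached at most 64.3 CPM. Of 5 endothelial markers tested 0 passed in edgeR, at an unadjusted p under 0.05, in DESeq2 or in limma-voom, but 2 were higher in WWv without WT 2. Macrophage and leukocyte markers summed to 9.8 to 15.1 CPM in WWv and 11.2 to 22.3 CPM in WT, with Cd3e at 0 counts in every library. Of 3 tested, 0 passed in edgeR or limma-voom. Csf1r was lower in WWv at an unadjusted p under 0.05, in DESeq2 (adjusted p = 0.0419) and in edgeR without WT 2 (adjusted p = 0.0073). The part of these cell type differences in the results that follow was not tested. In bulk RNA, fewer cells of a type and less RNA per cell cannot be told apart.

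Receptor protein tyrosine phosphatases span the membrane and remove phosphate from tyrosines, the reverse of what receptor kinases such as Kit and Alk do. Ptprz1 and Ptprg form a subfamily whose extracellular part begins with a carbonic anhydrase-like domain. Ptprz1, best known from glia, is also a chondroitin sulfate proteoglycan, and its secreted splice form is the brain matrix protein phosphacan. Pleiotrophin and midkine bind it through its sugar chains, and pleiotrophin is reported to inactivate its phosphatase activity. Ptprd, Ptprf (also called LAR) and Ptprs form the LAR type, with immunoglobulin and fibronectin domains outside the cell. Ptprk and Ptprm belong to a further subfamily that binds its own kind on neighbouring cells. Counts per gene do not separate the splice forms of Ptprz1.

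The codons of the catalytic signature are shown because it was found at 1 place in some phosphatases of the set and at 2 places in others. The signature was searched in the translated longest open reading frame of each gene's GENCODE M21 transcripts, as histidine, then cysteine or aspartate, any 2 residues, glycine, any residue, glycine and arginine. It was found at 1 place in Ptprz1 and Ptprg and at 2 places in Ptprd, Ptprf, Ptprs, Ptprk and Ptprm. Capitals mark the codon of the cysteine at the catalytic position, TGC at each of the 12 places found.
Ptprz1, membrane-proximal domain: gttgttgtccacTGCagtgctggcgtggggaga
Ptprg, membrane-proximal domain: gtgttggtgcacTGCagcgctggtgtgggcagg
Ptprf, membrane-proximal domain: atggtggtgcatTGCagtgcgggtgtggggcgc
Ptprf, membrane-distal domain: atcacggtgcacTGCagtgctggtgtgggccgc
Ptprm, membrane-proximal domain: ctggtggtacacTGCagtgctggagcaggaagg
Ptprm, membrane-distal domain: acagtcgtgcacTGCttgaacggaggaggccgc
The codon after TGC was agt or agc at each place printed except the membrane-distal one of Ptprm, where it was ttg. That no further match was found in Ptprz1 and Ptprg says only that this pattern is not in their frames.

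The promoters of the 3 phosphatase genes of the set with a higher level in WWv are shown because expression was what differed. Each runs from 250 bases before to 50 bases after the start of the gene, from RefSeq on GRCm38.p6, and 8 of the 10 genes had an entry (all except Mdk and Ptprd). Capitals mark the GC box GGGCGG on either strand.
Ptprz1, chr6:22875252-22875551, plus strand: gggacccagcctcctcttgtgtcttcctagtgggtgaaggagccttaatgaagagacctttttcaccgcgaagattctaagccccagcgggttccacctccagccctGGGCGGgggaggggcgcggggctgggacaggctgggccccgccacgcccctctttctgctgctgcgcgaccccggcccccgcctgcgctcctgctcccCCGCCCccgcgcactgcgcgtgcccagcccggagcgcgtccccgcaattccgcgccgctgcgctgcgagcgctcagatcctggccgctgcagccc
Ptprg, chr14:11553303-11553602, plus strand: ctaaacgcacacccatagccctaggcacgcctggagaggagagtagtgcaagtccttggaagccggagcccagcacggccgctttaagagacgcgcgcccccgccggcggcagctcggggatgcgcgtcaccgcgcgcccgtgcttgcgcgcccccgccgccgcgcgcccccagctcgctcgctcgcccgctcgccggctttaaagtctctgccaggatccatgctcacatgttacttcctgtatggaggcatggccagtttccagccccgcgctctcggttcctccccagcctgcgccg
Ptprm, chr17:67354410-67354709, minus strand: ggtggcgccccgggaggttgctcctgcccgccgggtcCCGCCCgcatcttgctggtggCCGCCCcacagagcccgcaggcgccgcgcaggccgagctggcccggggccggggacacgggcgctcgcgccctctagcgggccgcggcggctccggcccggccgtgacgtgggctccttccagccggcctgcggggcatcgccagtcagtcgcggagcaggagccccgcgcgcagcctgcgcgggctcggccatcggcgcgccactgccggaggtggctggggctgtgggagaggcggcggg

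The Ptprz1 window held 71.7% G and C, 29 CpG dinucleotides and 2 GC boxes. The Ptprg window printed held 69.0%, 36 CpG and 0 GC boxes, and the Ptprm window 80.7%, 43 CpG and 2 GC boxes, against medians of 52.7% and 7 CpG over 32851 windows. A further Ptprg window, at chr14:12189693-12189992, held 53.7%, 7 CpG, 0 GC boxes and 1 ACGTG. The Ptn window, from the gene with the lowest tested level of the set, held 52.0% and 6 CpG. A GC box was in 35.7% of all windows. TATAAA (13.6% of all windows), TGANTCA (7.81%), CATTCC (14.7%) and the CArG box (1.63%), each on both strands, had no match in the windows printed, nor had CACGTG (7.15%), which says only that these letters are not in them. ACGTG, which lies within CACGTG and was in 19.6% of all windows, had 1 match in those printed, in the Ptprm window.

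Ptprz1 (ENSMUSG00000068748.7, chromosome 6, 22875502 to 23052916 of mm10, on the plus strand) was measured at 29.2, 46.4, 35.3, 40.3 and 33.3 CPM in WWv 1 to 5, against 2.504, 8.32, 3.51, 2.80 and 5.43 CPM in WT 1 to 5. All WWv libraries lay far above all WT libraries, and WT 2 was the highest of WT. The raw counts behind these values were 1299 to 1997 in WWv and 120 to 386 in WT, so the transcript was well measured in both groups. Mean levels were 36.9 ± 6.64 CPM in WWv and 4.51 ± 2.42 CPM in WT (SD, n = 5 each), a ratio of 8.18, with a fitted log2 fold change of 3.04 ± 0.30 (SE). Leaving out any 1 library gave 2.88 to 3.39, the highest without WT 2, where the ratio of means was 10.4. Libraries within WWv varied less in proportion (coefficient of variation 18.0%) than those within WT (53.5%).

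**Figure D1:**
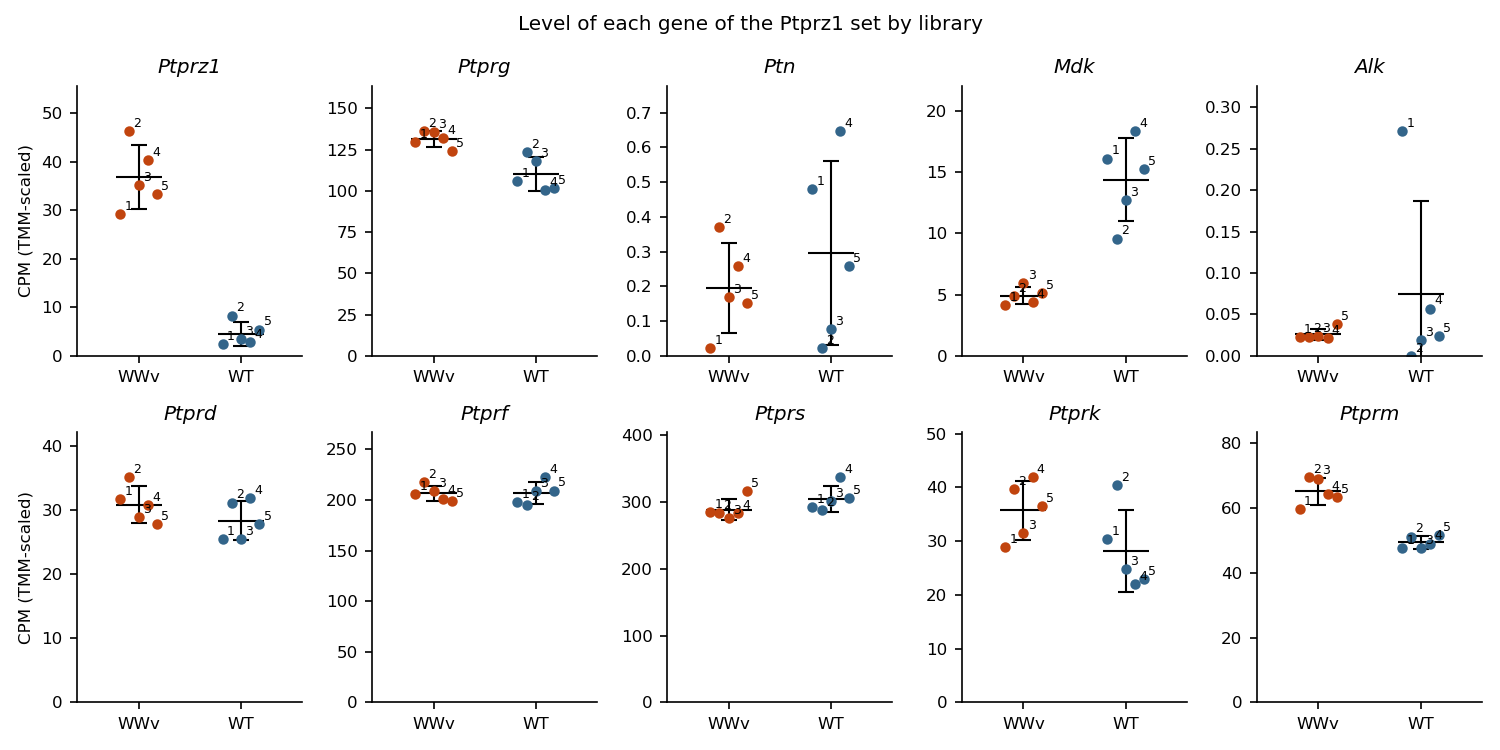
CPM of each gene of the set in every library, with WWv (red) left of WT (blue), each point numbered by library, and black bars for the mean ± SD of 5 libraries; each panel has its own axis from 0. Ptprz1 sits at 29.2 to 46.4 CPM in WWv against 2.504 to 8.32 CPM in WT, and Mdk lies the other way.

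Markers of Schwann cells and glia, where Ptprz1 is best known, did not pass the test. Their 13 genes summed to 9.89 to 34.9 CPM in WWv and 14.7 to 25.6 CPM in WT. Of the 10 tested, 0 passed in either direction in edgeR's quasi-likelihood test, 0 had an unadjusted p under 0.05, and 0 passed in DESeq2 or limma-voom, while 1 was higher in edgeR with WT 2 and WWv 1 both left out. WWv 1 had both the lowest marker sum of all libraries and the lowest Ptprz1 level of WWv, 29.2 CPM. The other WWv libraries did not follow that order. WWv 2, with the lowest sum among them (17.0 CPM), had the highest Ptprz1 level, 46.4 CPM. WWv 3 had the highest sum, 34.9 CPM, and 35.3 CPM of Ptprz1. In WWv 1 the glial transcription factor gene Sox10 and the Schwann cell cadherin gene Cdh19 were at 0 counts, and S100b was at 5.622 CPM. Olig2, of the oligodendrocyte lineage, was at 0 in every library. The sums of smooth muscle markers, higher in WWv, and of fibroblast markers, lower in WWv, did not overlap between the groups, whereas the glial sums did. The part of glial, smooth muscle or fibroblast RNA in the Ptprz1 difference was not tested.

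**Figure D2:**
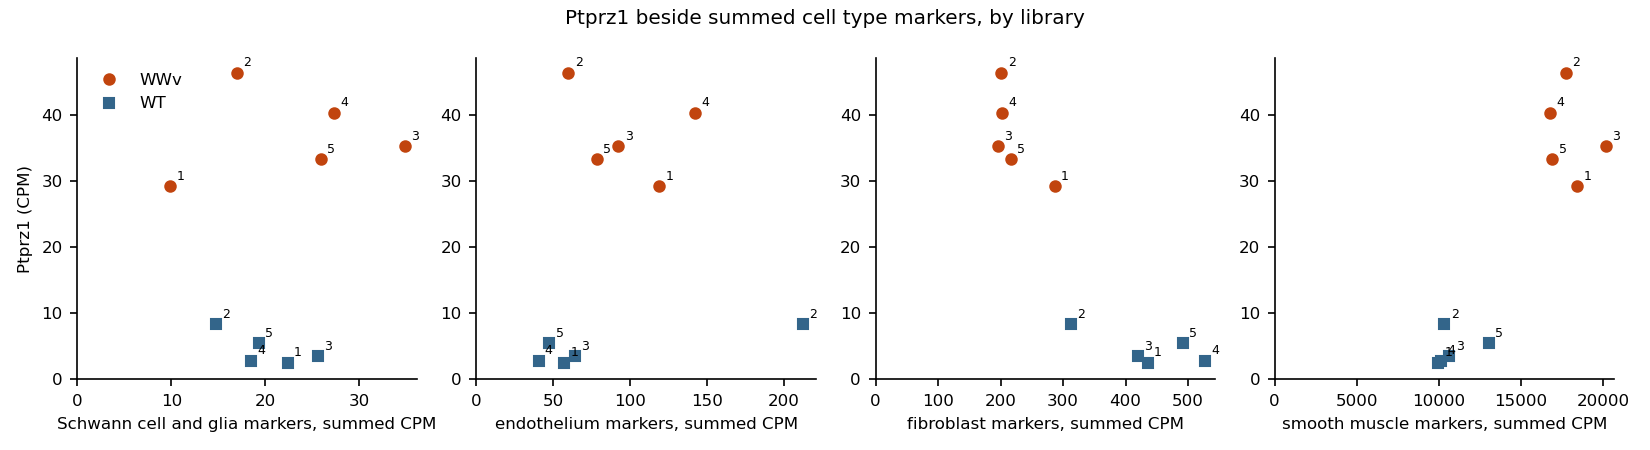
Ptprz1 in CPM (vertical axis) against the summed CPM of 4 marker lists (horizontal axes), 1 point per library, WWv as red circles and WT as blue squares, numbered by library. The glial sums of WWv (9.89 to 34.9) and WT (14.7 to 25.6) overlap, whereas those of smooth muscle and fibroblasts do not.

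The genes beside Ptprz1 on chromosome 6 did not pass the test. Aass, a lysine-degrading enzyme whose gene has its nearer end 19257 bases after the end of Ptprz1, averaged 1.19 ± 0.395 CPM in WWv and 1.83 ± 0.49 CPM in WT (log2 fold change −0.62 ± 0.26, edgeR adjusted p = 0.0978). It passed as lower without WT 2 (−0.76, adjusted p = 0.0203). Fam3c, with its nearer end 519259 bases before Ptprz1, averaged 74.3 ± 3.97 CPM in WWv and 76.3 ± 1.80 CPM in WT (−0.04 ± 0.05, edgeR adjusted p = 0.559).

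Across the 10 libraries the log2 CPM of Ptprz1 was followed most closely by Zdhhc18 (Pearson r = 0.989, Spearman rho = 0.927), Dmd (0.988, 0.939), Rasa4 (0.988, 0.867), Arpc2 (0.987, 0.939) and Tspan2 (0.987, 0.939), among 12566 genes with a mean of at least 1 CPM. Dmd encodes dystrophin, Arpc2 a subunit of the actin-nucleating Arp complex, Rasa4 a Ras GTPase-activating protein, Zdhhc18 a palmitoyltransferase and Tspan2 a tetraspanin. These values contain the difference between the groups. With each group's mean removed, the closest were Adamts14, a procollagen-processing protease (r = 0.963, rho = 0.939), B3glct (0.928, 0.915), Senp1 (0.926, 0.83), Imp3 (0.923, 0.867) and Lsm8 (0.921, 0.842). With WT 2 then left out, these 5 stood between 0.836 and 0.941. The WT mean removed still included WT 2, here and in the next sentence. A shared offset of the other WT libraries therefore remained in the values without WT 2. Of the set itself Ptprm deviated most like Ptprz1 (r = 0.623, rho = 0.661, and 0.647 without WT 2), while the values of Ptprk (0.588, and 0.179 without WT 2), Ptprg (0.56, and 0.204) and Mdk (−0.639, and −0.276) rested on WT 2. These coefficients describe 10 libraries and carry no test.

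Ptprg, the closest relative of Ptprz1 (ENSMUSG00000021745.14, chromosome 14, 11553532 to 12242041), stood at 129.8, 136.3, 135.8, 131.8 and 124.3 CPM in WWv 1 to 5, against 105.8, 123.5, 118.3, 100.6 and 101.9 CPM in WT 1 to 5. The groups did not overlap, although WWv 5 and WT 2 nearly met. It rose by a log2 fold change of 0.26 ± 0.06 (132 ± 4.93 CPM in WWv and 110 ± 10.3 CPM in WT, n = 5 each, edgeR adjusted p = 0.0131). Scaled by library totals alone, without TMM factors, it did not pass (0.17, adjusted p = 0.0919). Of its 11009 exon bases, 50 overlap Gm48603 on the opposite strand.

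Apart from Ptprz1, 3 of the 8 tested genes of the set passed the threshold in edgeR, with 2 higher (Ptprg and Ptprm) and 1 lower (Mdk). Over all 15181 tested genes 28.2% passed, 12.8% higher and 15.4% lower. These were 1940 higher and 2334 lower genes, against 983 and 3599 with library size only. Those 3 and Ptprz1 had no overlap between the groups, as had 15.9% of all tested genes. The set was chosen with this comparison known, and nothing is read from these counts.

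Of the ligands, Mdk was lower in WWv and Ptn was nearly absent in both groups. Mdk, a heparin-binding growth factor (ENSMUSG00000027239.14, chromosome 2, 91929805 to 91932297), stood at 4.18, 4.90, 5.94, 4.37 and 5.10 CPM in WWv 1 to 5, against 16.1, 9.57, 12.7, 18.4 and 15.2 CPM in WT 1 to 5. The groups did not overlap, and WT 2 was the lowest of WT. It fell by a log2 fold change of −1.56 ± 0.17 (4.90 ± 0.693 CPM in WWv and 14.4 ± 3.37 CPM in WT, n = 5 each, edgeR adjusted p = 0.000366), with a WT mean 2.94 times that of WWv. Leaving out any 1 library gave −1.67 to −1.45.

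Ptn (ENSMUSG00000029838.11, chromosome 6, 36714929 to 36810220) had 1, 16, 7, 12 and 8 counts in WWv 1 to 5, against 23, 1, 4, 34 and 11 counts in WT 1 to 5. The libraries of each group spread over more than the distance between the groups. Its log2 fold change was −0.62 ± 0.72 (0.195 ± 0.130 CPM in WWv and 0.297 ± 0.265 CPM in WT, edgeR adjusted p = 0.542), and leaving out 1 library moved it between −0.97 and −0.10. Per kilobase of merged exons, a scale on which genes can be roughly compared, Mdk stood at 3.70 ± 0.523 CPM in WWv and 10.9 ± 2.55 CPM in WT. The merged length takes every annotated exon, whether used in these cells or not. On that scale Ptn stood at 0.0567 ± 0.0378 CPM in WWv and 0.0866 ± 0.0773 CPM in WT, so midkine was the more abundant ligand transcript in both groups.

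Alk, a receptor tyrosine kinase proposed as a receptor for both ligands (ENSMUSG00000055471.7, chromosome 17, 71868972 to 72604627), had 1, 1, 1, 1 and 2 counts in WWv 1 to 5, against 13, 0, 1, 3 and 1 counts in WT 1 to 5. It was below the filter and was not tested. WT 1 stood alone at 13 counts, and the other 9 libraries had at most 3 each. The 0 counts of WT 2 allow a level of up to 0.0646 CPM (3 counts, for counting error only).

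Other receptors and ligands of this axis had 7 of 17 tested members higher and 2 lower, so 52.9% passed against 28.2% of all tested genes. Leaving out any 1 library gave 5 to 9 higher, the most without WT 2, and 2 to 3 lower. With library size only there were 5 higher and 3 lower. Medians of log2 fold change were 0.28 for the list and −0.01 for all tested genes. Cspg4, the pericyte proteoglycan NG2, rose by 1.70 ± 0.33 (234 ± 21.2 CPM in WWv and 71.8 ± 47.0 CPM in WT, edgeR adjusted p = 0.00448). WT 2 held 154 CPM of it, and no other WT library more than 65.0. Without WT 2 its log2 fold change was 2.19 (adjusted p = 5.13e-06). The integrin gene Itga4 rose by 1.00 ± 0.22 (adjusted p = 0.00856) and Itgb1, its beta chain partner, by 0.59 ± 0.06 (adjusted p = 0.000351). Itga4 shares 1124 of 13978 exon bases with Cerkl on the opposite strand. Gpc2, a glypican known as a midkine-binding heparan sulfate proteoglycan, fell by 1.41 on the log2 scale (SE 0.28, adjusted p = 0.00494), with reads uncertain because 2376 of its 4274 exon bases are shared with Gm43720 on the same strand. The Alk ligand gene Alkal1 did not pass (0.39 ± 0.22, adjusted p = 0.2), Alkal2 had at most 0.0195 CPM in any library, and Ltk, the kinase closest to Alk, was not tested either.

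Of the LAR type, Ptprf and Ptprs had the highest levels per kilobase of the set, and none of its 3 genes passed the test. Ptprf (ENSMUSG00000033295.14, chromosome 4, 118208213 to 118291405) stood at 206.1, 217.8, 209.2, 201.5 and 198.6 CPM in WWv 1 to 5, against 197.7, 195.5, 208.9, 222.3 and 209.4 CPM in WT 1 to 5. The groups overlapped throughout, and the fitted log2 fold change had an SE of 0.05 around −0.00 (edgeR adjusted p = 0.992). Ptprs (ENSMUSG00000013236.17, chromosome 17, 56412426 to 56476483), a receptor for chondroitin and heparan sulfate proteoglycans, ranged from 275.3 to 316.0 CPM in WWv and from 288.0 to 336.6 CPM in WT (log2 fold change −0.08 ± 0.06, adjusted p = 0.324). Ptprd (ENSMUSG00000028399.18, chromosome 4, 75941238 to 78211961), an organiser of synapses in neurons, ranged from 27.8 to 35.04 CPM in WWv and from 25.38 to 31.82 CPM in WT (0.12 ± 0.08, adjusted p = 0.295). Of its 22822 exon bases, 7 overlap B230208B08Rik on the opposite strand.

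Partners of the LAR type had 2 of 12 tested members higher and 1 lower, with a median log2 fold change of −0.05. Together these calls made up a smaller share than the 28.2% of all tested genes that passed. Ppfibp1, a liprin beta scaffold protein, rose by 0.25 ± 0.05 (430 ± 19.1 CPM in WWv and 360 ± 15.5 CPM in WT, edgeR adjusted p = 0.00448), and Ppfia1, the liprin alpha that binds LAR, by 0.21 ± 0.07 (adjusted p = 0.0441). Ntrk3, the neurotrophin receptor TrkC, which binds Ptprs at synapses, fell by 1.78 on the log2 scale (SE 0.36, adjusted p = 0.00571), to 0.823 ± 0.385 CPM in WWv against 2.85 ± 1.12 CPM in WT. Ppfia1 lost its call without any 1 of 8 libraries (adjusted p = 0.0609 to 0.0951), all except WT 2 and WT 5. It also lost it with WT 2 and WWv 1 both left out, upper quartile scaling, library size only, no low-count filter and a minimum of 1 CPM in 5 libraries (adjusted p = 0.0735, 0.0598, 0.159, 0.0558 and 0.0611). Without WT 2 there were 4 higher and 2 lower members. The synaptic ligands Slitrk1, Slitrk4 and Il1rapl1 were at 0 in every library.

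Of the cell-cell adhesion phosphatases Ptprm was higher in WWv and Ptprk did not pass. Ptprm (ENSMUSG00000033278.10, chromosome 17, 66666947 to 67354457) stood at 59.6, 69.5, 69.1, 64.4 and 63.5 CPM in WWv 1 to 5, against 47.7, 51.2, 47.6, 49.1 and 51.6 CPM in WT 1 to 5. Every WWv library lay above every WT library, and WT 2 lay among the other WT libraries. It rose by 0.40 ± 0.05 (65.2 ± 4.13 CPM in WWv and 49.4 ± 1.90 CPM in WT, n = 5 each, edgeR adjusted p = 0.000712), and leaving out any 1 library gave 0.37 to 0.43. Of its 8828 exon bases, 457 are shared with AC139750.1 on the same strand.

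Ptprk (ENSMUSG00000019889.10, chromosome 10, 28074820 to 28597397) stood at 28.9, 39.7, 31.5, 41.8 and 36.6 CPM in WWv 1 to 5, against 30.3, 40.4, 24.8, 21.9 and 22.9 CPM in WT 1 to 5. The groups overlapped because WT 2 lay near the top of WWv and WT 1 above WWv 1. Its log2 fold change was 0.35 ± 0.17 (35.7 ± 5.43 CPM in WWv and 28.1 ± 7.63 CPM in WT, edgeR adjusted p = 0.146). Without WT 2 it was 0.52 and passed (adjusted p = 0.00585).

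Catenins and cadherins that work beside these phosphatases had 2 of 7 tested members higher and 0 lower (median 0.24). The share passing was 28.6%, against 28.2% of all tested genes. There were 0 lower also at an unadjusted p under 0.05, in DESeq2 and in limma-voom. Iqgap1, an actin and cadherin scaffold reported to bind Ptprm, rose by 0.61 ± 0.08 (979 ± 105 CPM in WWv and 640 ± 51.7 CPM in WT, edgeR adjusted p = 0.000993). Ctnnd1, the catenin p120 and a reported substrate of Ptprm, rose by 0.41 ± 0.11 (adjusted p = 0.0205), with 4482 of its 7319 exon bases shared with Gm28635 on the same strand. Its call was lost without WWv 2 (adjusted p = 0.0528) and without WT 1 (adjusted p = 0.0511), each leaving 1 higher member, whereas without WT 2 there were 4, and 5 without WT 2 and WWv 1.

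Set on 1 scale per kilobase of merged exons, Ptprz1 held rank 9 of 21 receptor phosphatase genes in WWv and rank 14 in WT. Ranks and shares on this scale depend on the annotated exon length, 14245 bases for Ptprz1 and 22822 for Ptprd. It stood at 2.59 ± 0.466 CPM per kilobase in WWv and 0.317 ± 0.170 in WT. In WWv its neighbours in the order were Ptprk at 2.68 ± 0.407 and Ptprj at 2.49 ± 0.253, both within its spread, and in WT Ptpru at 0.345 ± 0.123 and Ptprv at 0.299 ± 0.059, likewise. The highest of all was Ptprn (37.1 ± 2.12 in WWv and 31.6 ± 1.95 in WT), followed by Ptprf (22.6 ± 0.816 in WWv and 22.6 ± 1.17 in WT) and Ptprs (19.3 ± 1.05 in WWv and 20.3 ± 1.28 in WT). The libraries' levels of Ptprf and Ptprs did not overlap in WWv (21.7 to 23.8 and 18.4 to 21.1) but did in WT (21.4 to 24.3 and 19.2 to 22.5). Ptprz1 made up 2.01 ± 0.322% of the summed receptor phosphatase level in WWv and 0.281 ± 0.143% in WT. Ptprn alone made up 28.9 ± 1.15% in WWv and 28.3 ± 1.32% in WT of that sum, which counts RNA and not phosphatase activity.

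**Figure D3:**
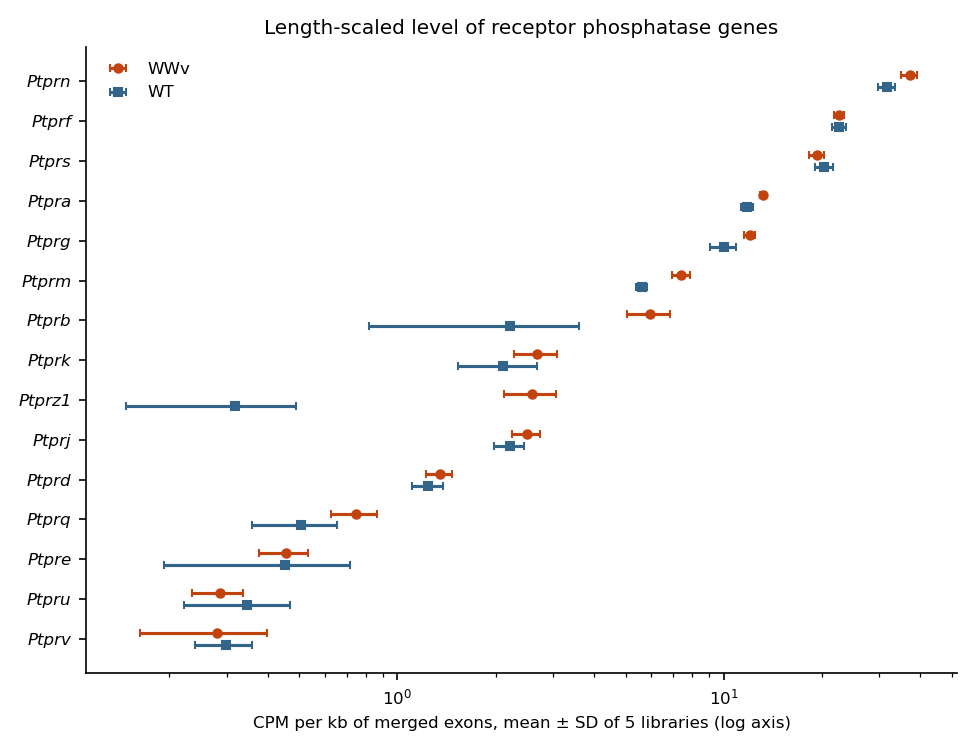
Mean ± SD over 5 libraries of CPM per kilobase of merged exons (log axis) for the receptor phosphatase genes above 0.1 in either group, WWv as red circles above WT as blue squares. Ptprz1 is at 2.59 in WWv against 0.317 in WT, while Ptprf and Ptprs lie near 20 in both groups.

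Among the 14 receptor phosphatase genes outside the set, 3 of 9 tested were higher and 0 lower (median 0.17). The share passing was 33.3%, against 28.2% of all tested genes. There were 0 lower also at an unadjusted p under 0.05, in DESeq2 and in limma-voom, and 1 lower without WT 2. Ptprb, the endothelial phosphatase VE-PTP, rose by 1.43 ± 0.31 (79.4 ± 11.9 CPM in WWv and 29.5 ± 18.5 CPM in WT, n = 5 each, edgeR adjusted p = 0.00813). WT 2 stood at 62.29 CPM, just under the lowest WWv library at 63.43, and was also the library with the most endothelial marker RNA, 212 CPM against 40.5 to 64.3 CPM in the other WT libraries. Without WT 2 the log2 fold change of Ptprb was 1.90 (adjusted p = 6.5e-06), and 2 endothelial markers were then higher in WWv as well. The part of endothelial RNA in the Ptprb level was not tested. Ptprn, which sits in secretory granule membranes of endocrine cells, rose by 0.23 ± 0.06 (adjusted p = 0.0125) and the broadly expressed Ptpra by 0.16 ± 0.04 (adjusted p = 0.0143). Both lost their calls without TMM factors (adjusted p = 0.0849 for Ptprn and 0.127 for Ptpra), and both overlap genes on the opposite strand.

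Of 14 contactins and adhesion ligands of Ptprz1 and Ptprg, best known from neurons and glia, 9 were tested, with 0 higher and 2 lower (median −0.39). The share passing was 22.2%, against 28.2% of all tested genes. At an unadjusted p under 0.05, 1 was higher, and 0 in DESeq2 or limma-voom. Contactin genes Cntn1, Cntn3, Cntn4, Cntn5 and Cntn6 were below the filter. Nfasc, the adhesion molecule neurofascin, fell by 2.27 on the log2 scale (SE 0.43, edgeR adjusted p = 0.00414), to 0.723 ± 0.309 CPM in WWv against 3.50 ± 1.80 CPM in WT. Chl1, a relative of L1, fell by 2.36 (SE 0.59, adjusted p = 0.0146), to 1.02 ± 0.574 CPM in WWv against 5.24 ± 2.96 CPM in WT. In both, WT 2 (1.10 and 0.755 CPM) lay within WWv. Without WT 2 the log2 fold changes were −2.50 for Nfasc (adjusted p = 0.000155) and −2.63 for Chl1 (adjusted p = 0.000393). In limma-voom Chl1 did not pass (adjusted p = 0.0707), and without WT 2 and WWv 1 there were 4 lower.

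Reported substrates and partners of Ptprz1 had 2 of 12 tested members higher and 2 lower, with a median of 0.00. The share passing was 33.3%, against 28.2% of all tested genes. With library size only there were 1 higher and 4 lower, and without WT 2 and WWv 1 there were 4 of each. Magi1, a junction scaffold, rose by 0.63 ± 0.13 (62.1 ± 3.97 CPM in WWv and 40.2 ± 8.90 CPM in WT, edgeR adjusted p = 0.00727), and the Src family kinase gene Fyn by 0.33 ± 0.09 (adjusted p = 0.0155). Add3, an adducin of the membrane skeleton, fell by 0.32 (SE 0.08, adjusted p = 0.0137) and the adaptor gene Pxn by 0.18 (SE 0.05, adjusted p = 0.0313). Ctnnb1, beta-catenin, had a log2 fold change of 0.00 ± 0.05 (adjusted p = 0.992). Pxn lost its call without any 1 of 6 libraries (WWv 2, WWv 3, WWv 4, WT 1, WT 3 and WT 4, adjusted p = 0.0591 to 0.0844), also with no low-count filter (0.0805). Fyn lost its call without WWv 4 (adjusted p = 0.0514) and with library size only (0.0576).

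Enzymes of chondroitin sulfate synthesis, which build the chains that Ptprz1 carries and Ptprs binds, had 6 of 20 tested members higher and 3 lower, with a median of 0.13. The share passing was 45.0%, against 28.2% of all tested genes. Chst7, a sulfotransferase of the chains, rose by 0.81 ± 0.21 (8.53 ± 1.25 CPM in WWv and 4.85 ± 1.89 CPM in WT, edgeR adjusted p = 0.0171), and the chain polymerase gene Chsy3 by 0.60 ± 0.14 (adjusted p = 0.0105). Csgalnact1, which starts the chains, fell by 0.90 (SE 0.29, adjusted p = 0.0377) and Xylt1, which adds the first sugar to the core protein, by 0.63 (SE 0.16, adjusted p = 0.0165). Csgalnact1 lost its call without any 1 of 7 libraries, all except WWv 3, WT 1 and WT 2 (adjusted p = 0.0621 to 0.0892) and in limma-voom (0.0835), and Chst7 without WWv 4 (adjusted p = 0.0515). In edgeR without WT 2 the log2 fold changes were −1.10 for Csgalnact1 (adjusted p = 0.00118) and 1.09 for Chst7 (adjusted p = 5.56e-05). Those of Xylt1 and Chsy3 were then −0.73 and 0.52 (adjusted p = 0.0015 and 0.00596).

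**Figure D4:**
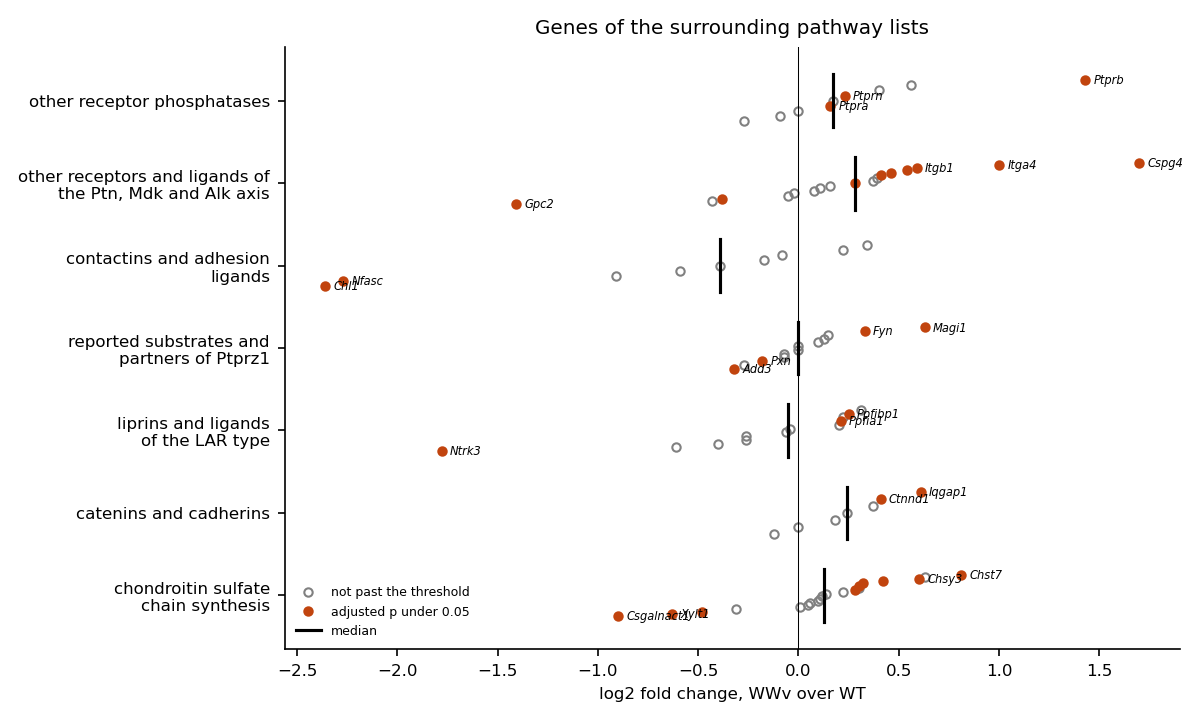
Fitted log2 fold change (WWv over WT, horizontal axis) of every tested gene in 7 lists around the Ptprz1 set; filled red points passed an adjusted p under 0.05, open grey points did not, and black bars are list medians. Medians run from −0.39 for contactins and adhesion ligands to 0.28 for the other receptors and ligands.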

How the data were processed

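The authors deposited raw counts per gene, as whole numbers, for 54446 versioned Ensembl IDs in 10 libraries. The submitters' processing notes name bcl2fastq 2.17, Trim Galore 0.4.3, the aligner STAR 2.5.2a and the build mm10. Which tool counted reads, with which strand setting and gene models, is not given in the sources used here, so reads shared by overlapping genes are uncertain. The library kit was Nugen Universal Plus mRNA-Seq, per the labels' protocols. Symbols, positions and merged exon lengths came from GENCODE M21 on GRCm38, matched without the version for 54409 IDs.

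Groups came from the sample titles. The main test of WWv against WT was the quasi-likelihood test of edgeR 4.0.16, run in R 4.3.3 on TMM-normalized counts with group as the only term. It covered 15181 genes, those kept by filterByExpr (minimum count 10). A gene passed at a two-sided Benjamini-Hochberg adjusted p under 0.05 over all of them. Each standard error is the size of the log2 fold change over the root of its F statistic. Alternatives, DESeq2 1.42.0 and limma-voom 3.58.1 among them, are given at the end. The procedure was tested on simulated data.

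The members, lists and tests were chosen with earlier results of these data known. Named were all members and from each other list the 4 called genes that changed most (fewer where fewer were called, and the gene of smallest p where none was). Also named were the nearest tested coding genes, the 5 genes closest to Ptprz1 by each of 2 measures, Kit and cell type markers. Chosen after their values were seen were Alkal1, Alkal2, Ltk, Ctnnb1 and the genes named as being at 0 or below the filter. Replicate numbers were not used to pair the libraries in the main test. The correlation of same-numbered deviations from the group means was over 0.1 in 1 of 5 pairs. That check cannot show whether same-numbered libraries were prepared together.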

Additional observations from a re-analysis of the deposited data

Results flagged for a closer look

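Single libraries stood far from the rest of their group of 5 in 3 of the 20 groups of values examined (10 genes in WWv and in WT). For normally distributed values chance gives about 1 in 20. Ptprs stood at 316 CPM in WWv 5, with a gap to the next WWv library of 0.758 of the group's range. Alk stood at 0.0382 CPM in WWv 5 (gap 0.848 of the range) and at 0.271 CPM in WT 1 (0.789), which are 2 and 13 counts. That rate does not hold for counts as low as those of Alk, so nothing is read from the number of groups flagged.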

How the results depend on the processing

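Ptprz1, Mdk and Ptprm kept their direction under all 20 alternatives, Mdk and Ptprm also their calls. Ptprg lost its call with library size only (0.17), leaving 1 higher gene of the set. Ptprk passed without WT 2 (0.52; range 0.27 to 0.52 with 1 library left out) and without WT 2 and WWv 1 (0.58). Ptn gave no value with a minimum of 1 CPM in 5 libraries. Ptprf, at −0.00, took the opposite sign at 0.00 with RLE, no low-count filter, DESeq2, limma-voom and the replicate block, and ranged from −0.02 to 0.03 with 1 library left out. Over all genes there were 1940 higher and 2334 lower calls, 983 and 3599 with library size only, and 3361 and 3750 without WT 2 and WWv 1. With 1 library left out they ranged from 1286 to 3507 and from 1721 to 3620, the most without WT 2. The 7 lists held 111 distinct genes, tested or not. Their calls numbered 22 higher and 10 lower, and 17 to 31 and 8 to 16 with 1 library left out. Lower calls in the lists were 16 without WT 2 and WWv 1. The shares over all tested genes were 12.8% higher and 15.4% lower, and nothing is read from the list counts. The replicate block, whose numbers are not known to pair the libraries, gave 1693 higher and 1943 lower calls, 3.14 for Ptprz1 and no call for Pxn (edgeR adjusted p = 0.0637). Of the 5 WWv libraries none correlated best with its own number. Ptn and Alk had at most 34 counts in any library.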
